A study of Caenorhabditis elegans with 2 samples.

Results

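The nuclear tRNA genes of Caenorhabditis elegans, taken as every nuclear gene with the biotype tRNA in the Ensembl annotation of the WBcel235 assembly, number 612 among 46890 annotated nuclear genes. They were described by where binding peaks of the nuclear hormone receptor NHR-43 lay around them in a chromatin immunoprecipitation sequencing (ChIP-seq) experiment. Strain OP477 carries unc-119(tm4063) III and the integrated transgene wgIs477, which makes NHR-43 with GFP and FLAG at its C-terminus, and both samples share this genotype. Whole hermaphrodite larvae of the L3 stage were collected 36.5 h after synchronization at a starved L1 stage, their chromatin was sonicated, and tagged protein was precipitated with an antibody to GFP. The labels describe the 2 samples as biological replicates of 1 group, so the data hold no comparison between conditions, and the comparisons below are between classes of tRNA gene within these 2 samples. The control libraries that the labels list were not analysed here, so how far other tagged proteins or a control antibody give summits at tRNA genes was not tested. The samples are whole animals, and the cells in which the receptor met a given gene are not known from these data.

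tRNA genes are transcribed by RNA polymerase III, mostly from promoter elements inside the gene, the A box in the part that forms the D-loop and the B box in the part that forms the T-loop. The factor TFIIIC binds these boxes and places TFIIIB just upstream of the gene, and TFIIIB recruits the polymerase, which stops at a run of T bases after the gene. Worm tRNA genes are scattered over all chromosomes, many lie on X, and many lie in introns of protein-coding genes. NHR-43 belongs to the large family of worm nuclear receptors, which act at genes transcribed by RNA polymerase II.

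The 612 genes were 64 to 122 bp long, with a median of 72 bp, and a TTTT lay within 50 bp after 605 of them. They held 200 distinct sequences. An identical copy among the other 612 annotated genes existed for 469 genes, and 143 had none there. The rest of the genome was not searched for copies. The annotation of isotypes, from RefSeq, named 21 and left 5 genes without one. Anticodons and the initiator methionine tRNA are not separated there.

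The first set of sequences shows 6 genes that the results turn on, each 5′ to 3′ on its own strand and read from the WBcel235 genome. The capitals mark the T-loop word GTTCNANNC, which holds the core of the B box. ZK899.t1 carried the highest peak at a proline gene, C11E4.t1 stands for the alanine copies with a high share of peaks, and C03A3.t1 stands for the arginine copies that all lie on X. R11.t1 carried the highest peak at a tyrosine gene, F28H6.t2 belongs to a group of 6 histidine genes with no peak in the final list, and K11H12.t1 is the selenocysteine gene.

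ZK899.t1, Pro, chrX:9467729-9467800, minus strand: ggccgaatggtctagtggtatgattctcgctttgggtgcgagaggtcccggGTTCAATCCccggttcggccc
C11E4.t1, Ala, chrX:9622824-9622895, minus strand: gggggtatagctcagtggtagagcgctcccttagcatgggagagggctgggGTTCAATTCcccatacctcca
C03A3.t1, Arg, chrX:11252590-11252662, minus strand: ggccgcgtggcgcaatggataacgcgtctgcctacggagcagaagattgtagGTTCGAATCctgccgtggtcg
R11.t1, Tyr, chrX:16209769-16209852, minus strand: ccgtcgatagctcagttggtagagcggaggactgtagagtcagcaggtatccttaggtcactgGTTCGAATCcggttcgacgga
F28H6.t2, His, chrX:14135045-14135116, plus strand: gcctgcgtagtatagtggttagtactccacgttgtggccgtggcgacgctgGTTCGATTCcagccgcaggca
K11H12.t1, Sec, chrIV:658181-658266, plus strand: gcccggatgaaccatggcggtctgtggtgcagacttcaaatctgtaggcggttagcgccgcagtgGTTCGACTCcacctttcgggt

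The second set adds the 40 bases upstream of the gene in lower case, with the gene in capitals. It shows identical tRNA genes whose flanks differ, 2 of tyrosine and 2 of proline. In each pair the first gene had a peak in the final list and the other had none.

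R11.t1, chrX:16209769-16209892, minus strand: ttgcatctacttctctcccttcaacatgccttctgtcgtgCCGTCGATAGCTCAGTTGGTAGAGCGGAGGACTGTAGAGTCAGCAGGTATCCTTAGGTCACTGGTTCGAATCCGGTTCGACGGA
R11.t2, chrX:16209228-16209351, minus strand: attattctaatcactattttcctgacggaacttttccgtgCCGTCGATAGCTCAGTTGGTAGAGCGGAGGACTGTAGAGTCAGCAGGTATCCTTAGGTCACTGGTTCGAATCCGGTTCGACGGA
ZK899.t1, chrX:9467729-9467840, minus strand: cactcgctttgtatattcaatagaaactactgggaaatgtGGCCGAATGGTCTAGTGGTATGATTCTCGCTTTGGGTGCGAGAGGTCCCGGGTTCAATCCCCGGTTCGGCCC
R11G10.t2, chrV:13507203-13507314, minus strand: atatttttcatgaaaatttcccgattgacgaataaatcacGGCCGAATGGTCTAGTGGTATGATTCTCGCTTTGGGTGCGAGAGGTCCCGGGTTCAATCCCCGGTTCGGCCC

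The authors deposited a list of 3889 peaks that passed their irreproducible discovery rate threshold, 3870 of them nuclear, and a relaxed list for each replicate with 29315 and 30000 peaks. The thresholded list is called final below, and a tRNA gene is called where a final summit lay in it or within 500 bp of it. Each replicate was also read alone through its 3889 peaks of highest signal, called its highest peaks. Differences between classes of genes were not tested, since neighbouring genes share peaks and copies share sequence. Read depth is unknown. The peak signal is the authors' own, its scale belongs to its list, and it is used only to describe and rank peaks within a list. A replicate's signal given for a gene or its peak is that of its highest relaxed peak with a summit within 500 bp of the gene. This peak was chosen in each replicate apart and need not be the final peak.

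Close to every second tRNA gene was called. In the final list 296 of 612 genes had a summit, or 48.4% (exact Clopper-Pearson 95% interval 44.3 to 52.4, which covers counting error only, as do all intervals here). Among the other 46278 nuclear genes, 6.32% had a final summit within 500 bp of the 5′ end, and a stretch as long as a median tRNA gene would be called at 3.87% of nuclear positions. Protein-coding genes stood at 8.45%. The classes of short RNA gene lay between these values and the tRNA genes or lower, with 30.1% of 346 snoRNA genes, 24.0% of 129 snRNA genes, 11.5% of 261 miRNA genes and 1.24% of 15363 piRNA genes called. The replicates alone gave the same order, with 253 tRNA genes (41.3%) against 6.16% of other genes among the highest peaks of replicate 1, and 297 (48.5%) against 6.10% in replicate 2.

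The relaxed lists reached most tRNA genes. A summit lay within 500 bp of 453 genes (74.0%) in replicate 1 and of 464 (75.8%) in replicate 2, where 25.0% and 25.0% of other genes had one. Of the 296 called genes, 279 had a relaxed summit in both replicates and 196 were also reached by the highest peaks of both. Of the 316 genes that were not called, 168 had a summit in the relaxed list made from pooled reads. In none of the final, replicate and pooled lists did 84 genes have a summit.

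The peaks at tRNA genes were of middle height. Of the 3870 final nuclear peaks, 254 (6.56%) had a summit within 500 bp of a tRNA gene, of which 203 were near 1 tRNA gene, 43 near 2 and 8 near 3 or more. Their median signal was 115, against 110 in the other 3616 peaks, and both sets had a median width of 324 bp. Only 17 of the 500 highest peaks (3.4%) were near a tRNA gene. The share was 10.2% at ranks 1501 to 2000 and 3.24% among the lowest 370. Over the 244 peaks that were the highest at a called gene, the signal ran from 63.03 to 1007.92 with quartiles at 88.2, 118 and 167, and 37 peaks were above 200.

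These peaks were chosen for lying near tRNA genes, so the tRNA gene words around their summits restate that choice and are given as a description. Within 75 bp of the summit, on either strand, the word GTTCNANNC was present at 60.2% of the 254 peaks and 5.42% of the others. The narrower word GTTCGANNC, whose matches are all matches to the wider one too, was present at 44.9% and 1.44%. Of 3 other words, GAGAGA was present at 20.5% against 27.3%, CTGCGTCTC at 3 of 254 (1.18%) against 7.13%, and CCGCCC at 7.87% against 7.22%. A summit in a protein-coding promoter, reaching 1000 bp upstream and 200 bp downstream of a 5′ end, was found for 22.8% of the 254 peaks and 43.9% of the others. The mean G+C content was 47.1% ± 5.56 (SD over 254 peaks) against 42.9% ± 7.08 (SD over 3616 peaks). Peaks are not replicates, and none of these differences was tested.

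Summits stood at the 5′ end of the gene. Among 341 tRNA genes with no other tRNA gene within 2000 bp, the 50 bp bin with most final summits lay just upstream of the 5′ end, from −50 to −1, and held 61. The same bin held most summits in the highest and the relaxed peaks of each replicate, with 76 in the relaxed list of replicate 1 and 79 in that of replicate 2. From −100 to 49 bp lay 120 of the 166 final summits found within the plotted range (72.3%), while the 20 bins farther than 500 bp from the 5′ end held 9 summits in all. The highest peaks had 66.9% of their summits in that window in replicate 1 and 67.6% in replicate 2. The relaxed lists were less concentrated, with 36.3% and 42.9% in the window and 104 and 95 of 375 summits in the 20 far bins. The bins from 0 to 49 and from 50 to 99 bp, which cover the gene, held 53 and 23 final summits. TFIIIB is placed just upstream of a tRNA gene and TFIIIC binds inside it, and neither factor nor the polymerase was measured here.

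**Figure D1:**
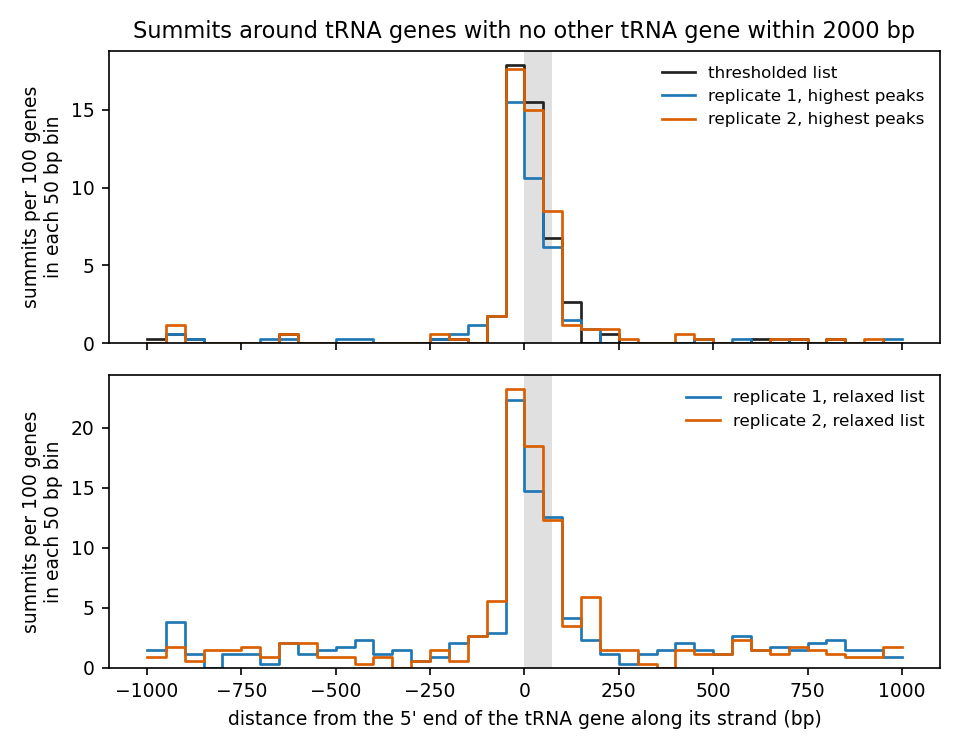
Summits by distance from the 5′ end of 341 tRNA genes that have no other tRNA gene within 2000 bp, as summits per 100 genes in 50 bp bins, negative values lying upstream; the grey band is a gene of median length (72 bp). The upper panel shows the final list and the highest peaks of each replicate, the lower panel the relaxed lists, and all lines have their maximum in the bin from −50 to −1 bp.

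For the 166 called genes with no other tRNA gene within 1000 bp, the highest peak's summit lay at a median of 4.5 bp from the 5′ end, with quartiles at −17 and 42.2 bp. It was upstream of 72 of these genes, inside 77 and downstream of 17. The median was −1.0 bp in the highest peaks of replicate 1 and 5.5 bp in those of replicate 2. Genes more than 1000 bp from a protein-coding 5′ end had nearly the same median in the final list, 3.0 bp over 106 genes, as those nearer to one, 7.5 bp over 60 genes. The highest peaks of replicate 2 gave 5.0 and 5.5 bp. Those of replicate 1 lay farther apart, at −7.5 bp over 90 far genes and 9.0 bp over 51 near ones.

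tRNA genes on X were called more often than those on autosomes. Of 276 genes on X, 170 were called (61.6%, interval 55.6 to 67.4), and of 336 autosomal genes 126 were (37.5%, 32.3 to 42.9). The replicates alone showed the same order, with 48.9% on X against 35.1% for replicate 1 and 59.4% against 39.6% for replicate 2. Protein-coding genes were called at 9.15% on X and 8.33% on autosomes in the final list, at 8.02% and 8.35% in replicate 1 and at 8.42% and 7.93% in replicate 2. All nuclear genes other than tRNA genes stood at 9.73% on X and 5.84% on autosomes. Without the piRNA genes, which are rarely called and lie mostly on IV, they stood at 9.94% and 8.61%. No test set the X and autosomal shares of tRNA genes against those of other genes. X holds 276 of the 612 tRNA genes, and 138 of its 825 final peaks (16.7%) were within 500 bp of one, while this share was 2.62 to 4.70% on the other chromosomes.

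Among autosomes, V had the lowest share in the final list and in the highest peaks of both replicates, with 19 of 78 genes (24.4%) called. The others had 23 of 66 on I (34.8%), 27 of 71 on IV (38.0%), 30 of 64 on III (46.9%) and 27 of 57 on II (47.4%). The intervals of II and III overlap those of all other autosomes. V was also the chromosome with the lowest share of protein-coding genes called, 6.41% in the final list, 6.31% in replicate 1 and 6.19% in replicate 2. In the middle 50% of the autosomes' length 43.5% of 170 genes were called, against 31.3% of 166 genes in the outer 25% at each end. The same order held in replicate 1 (42.9% and 27.1%) and replicate 2 (46.5% and 32.5%). Protein-coding genes had this order too, with 10.6% called in the middle and 5.53% in the outer parts.

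**Figure D2:**
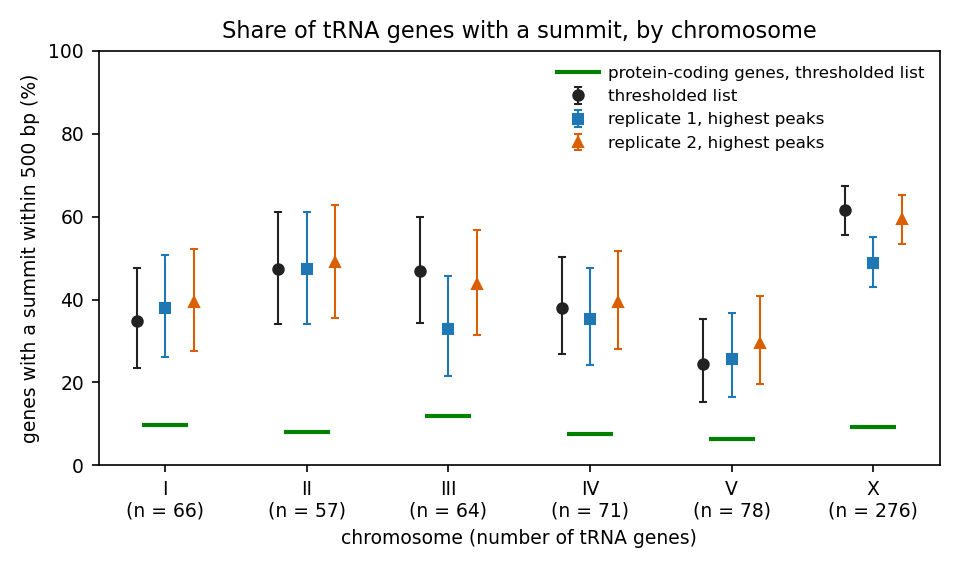
Share of tRNA genes with a summit within 500 bp, by chromosome, in the final list and in the highest peaks of each replicate, with exact 95% intervals as bars; the green line is the share of protein-coding genes called on that chromosome. X has the highest share in the final list (61.6%) and V the lowest (24.4%), while the green lines run from 6.41% on V to 12.0% on III.

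The X share stood above the autosomal one in each class of position and spacing examined. It was 68.8% against 36.6% inside protein-coding genes and 57.8% against 38.7% outside them. It was 61.0% against 34.0% for tRNA genes with no other within 1000 bp, and 62.2% against 45.5% for those with one. Among genes that were alone, outside protein-coding genes and more than 1000 bp from a protein-coding 5′ end, 29 of 54 on X (53.7%) and 22 of 59 on autosomes (37.3%) were called, with intervals that overlap. The height of the peaks differed less: the median signal was 124 over 133 peaks on X, with quartiles at 95.5 and 173, and 115 over 111 autosomal peaks, with quartiles at 83.6 and 155.

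Identical gene copies allow X and autosomes to be set side by side at the same gene sequence. There were 25 families with 8 or more identical copies, with 361 genes in all, and each held both called and uncalled copies. In the 23 families with copies on X and on autosomes, 102 of 159 X copies were called (64.2%) and 76 of 183 autosomal copies (41.5%), and the X share was the higher in 18 families. How the authors placed reads that match several copies is not stated in the sources used. A read from within an identical copy cannot be assigned by its sequence, while one that reaches the flank can.

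**Figure D3:**
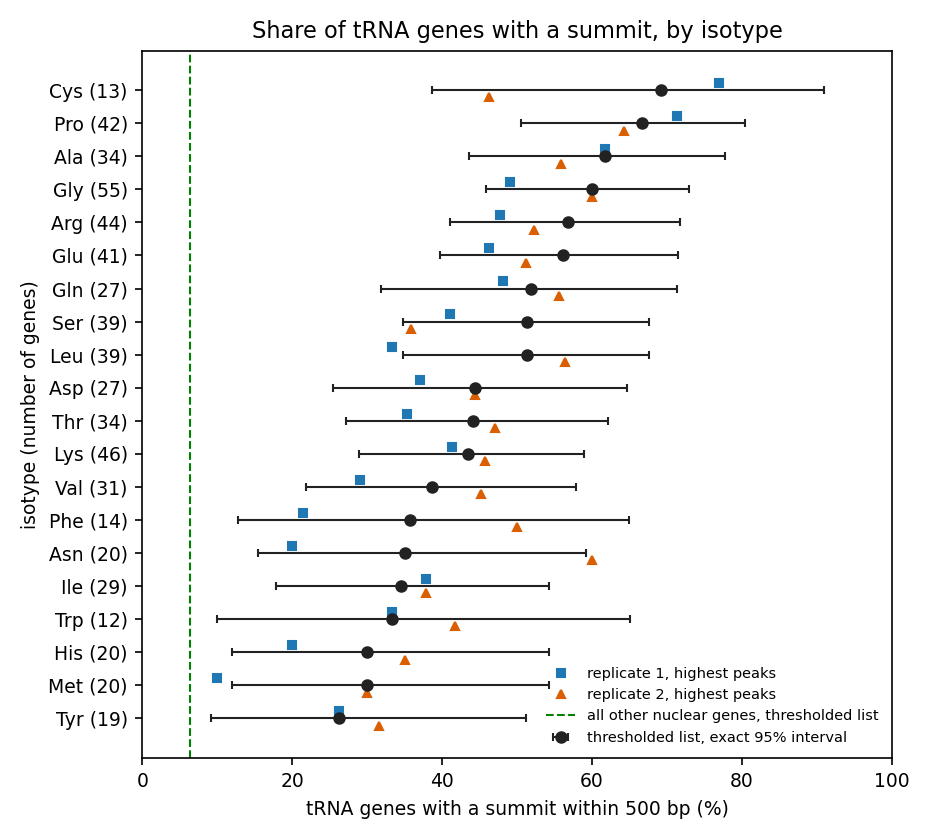
Share of tRNA genes with a summit within 500 bp for the 20 isotypes with 12 or more genes, in order of the final list (black points, bars are exact 95% intervals), with the highest peaks of each replicate as squares and triangles; the dashed line is the share of all other nuclear genes, 6.32%. The final shares run from 26.3% for Tyr to 69.2% for Cys, most intervals overlap, and for several isotypes the replicates lie far apart.

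By isotype, the proline, alanine and glycine genes were called most often among the larger groups. Proline tRNA genes were called at 28 of 42 (66.7%, interval 50.5 to 80.4), and the replicates alone gave 71.4% and 64.3%. Alanine genes stood at 21 of 34 (61.8%; 61.8% and 55.9%) and glycine genes at 33 of 55 (60.0%; 49.1% and 60.0%). Cysteine genes had the highest share, 9 of 13 (69.2%), but only 6 of 13 (46.2%) in replicate 2, and 7 of the 13 lie on X.

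The lowest shares belonged to tyrosine genes with 5 of 19 (26.3%), histidine with 6 of 20 (30.0%), methionine with 6 of 20 (30.0%) and tryptophan with 4 of 12 (33.3%). Of the 20 histidine genes, 6 stand in 1 locus on X, F28H6, where none was called. Except for proline, the interval of each of the 20 isotypes held the share over all tRNA genes, 48.4%. For asparagine the replicates disagreed, with 4 of 20 genes in replicate 1 and 12 of 20 in replicate 2. Every isotype other than the single selenocysteine gene stood above the 6.32% of other genes.

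Most isotypes were called more often on X. In 17 of the 20 isotypes with genes on both, the share was higher on X than on autosomes, and this count was 17 in each replicate's highest peaks too. On X, 12 of 13 alanine genes, 18 of 20 glycine genes and 17 of 20 proline genes were called, against 9 of 21, 15 of 35 and 11 of 22 on autosomes. The highest peaks of replicate 1 gave 11, 11 and 15 of these genes on X and 10, 16 and 15 on autosomes. The gap was thus small there for glycine and proline. Replicate 2 gave 11, 17 and 17 on X and 8, 16 and 10 on autosomes. Arginine genes were called at 15 of 27 on X and 10 of 17 on autosomes, histidine at 2 of 9 and 4 of 11, and tryptophan at 1 of 5 and 3 of 7. The 9 histidine genes on X include the 6 of the F28H6 locus. In replicate 1 arginine (14 of 27 and 7 of 17) and histidine (3 of 9 and 1 of 11) were higher on X. The isotypes behind the count of 17 thus differed between lists.

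The largest proline family, with the sequence printed for ZK899.t1, had 24 copies, of which 20 were called. All 13 copies on X were called, and 7 of the 11 on autosomes. The final signal ran from 64.86 at R04D3.t3 to 320.7 at ZK899.t1. Of the uncalled copies, ZK970.t2 had a signal of 33.25 in replicate 1 and 16.66 in replicate 2, while Y71H2AM.t1 had no summit in any list. R11G10.t2, printed above beside ZK899.t1, had none in replicate 1 and a signal of 11.16 at rank 18118 in replicate 2.

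Other families with high shares were the 29-copy glycine family with 23 called, the 15-copy alanine family of C11E4.t1 with 12, and the arginine family of C03A3.t1, whose 10 copies all lie on X and of which 9 were called. Low shares were found for the histidine family of F28H6.t2, with 4 of 11 called, the 19-copy isoleucine family with 6, and the tryptophan family of sup-5, with 3 of 10. These families were chosen for their shares after the values were seen. Of the 11 histidine copies, 6 stand in the F28H6 locus on X, where none was called. In this family 1 of 8 copies on X was called, and all 3 on autosomes. The highest peaks of replicates 1 and 2 reached 16 and 21 of the glycine copies, 9 and 10 of the alanine copies and 7 and 9 of the arginine copies. They reached 3 and 4 of the histidine copies, 7 and 7 of the isoleucine copies and 3 and 5 of the tryptophan copies.

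The tryptophan family holds the genes in which classical amber suppressor mutations arose, sup-5 and sup-7 among them. At sup-5 on III, in an intron of fli-1, a peak with signal 151.41 had its summit 5 bp upstream of the gene, and its signal was 53.92 in replicate 1 (rank 1044) and 78.36 in replicate 2 (rank 1441). At sup-7 on X no final summit was found, although replicate 2 had a peak of 78.44 (rank 1437), and replicate 1 one of 17.3 (rank 4013). The identical genes rtw-6 and Y4C6B.t2 were called with 84.59 and 72.09. sup-28 and sup-33, which lie 857 bp apart in trk-1, were not called and had relaxed summits of 10.23 and 14.73 and of 6.86 and 17.84 in replicates 1 and 2.

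The selenocysteine gene K11H12.t1, which inserts selenocysteine at UGA codons, was not called. It had relaxed summits with signal 8.38 in replicate 1 and 33.73 in replicate 2, at ranks 10432 and 4241. Of the 5 genes with no isotype, C28G1.t5 was called with a signal of 72.99 and its summit 231 bp upstream, and another tRNA gene lies 193 bp from it.

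The share called among closely spaced genes, set against that of the others, depended on the reach. Of 170 tRNA genes with another within 500 bp, 103 (60.6%, interval 52.8 to 68.0) were called. The shares were 40.9% of 66 genes with the nearest other beyond 500 and up to 1000 bp away, 39.3% of 89 up to 5000 bp, 50.4% of 119 up to 50000 bp and 42.3% of 168 beyond that. A gene with a near neighbour is also reached by the neighbour's summit. With the reach set to 100 bp, the share of genes with another within 1000 bp minus that of the rest was −2.99 points. It was 5.27 points at 250 bp and 10.9 points at 500 bp, and −3.41 points when the peak had to overlap the gene. X holds 135 of the 236 genes with another within 1000 bp and 141 of the 376 without. On X, 62.2% of those with one and 61.0% of those without were called, with 49.6% and 48.2% in replicate 1 and 56.3% and 62.4% in replicate 2. On autosomes the shares were 45.5% and 34.0%, with 44.6% and 31.1% in replicate 1 and 46.5% and 36.6% in replicate 2.

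The 612 genes form 476 loci when genes up to 1000 bp apart are joined, and 230 loci (48.3%) had a final summit. Of 376 loci with 1 gene, 44.1% had one, of 78 with 2 genes 59.0%, and of 22 with 3 or more 81.8%. Larger loci cover more sequence and so have more room for a summit. Replicate 1 gave 37.5%, 57.7% and 54.5%, and replicate 2 gave 46.3%, 59.0% and 72.7%.

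Neighbouring genes up to 500 bp apart formed 96 pairs, 65 of them on X, of which 75 were of 1 isotype and 45 were identical in sequence. In the 42 divergent pairs, whose 5′ ends face each other, 29 (69.0%, interval 52.9 to 82.4) had a final summit near either gene, and in 23 it lay in the space between the genes, a median of 150 bp wide. Convergent pairs, whose 3′ ends face each other, were reached in 15 of 21 (71.4%, 47.8 to 88.7), with a summit between the genes in 5. Tandem pairs were reached in 16 of 33 (48.5%, 30.8 to 66.5), with a summit between in 5, over a median space of 334 bp. The highest peaks placed a summit between the genes of 19 divergent, 2 convergent and 4 tandem pairs in replicate 1, and of 18, 4 and 5 in replicate 2.

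**Figure D4:**
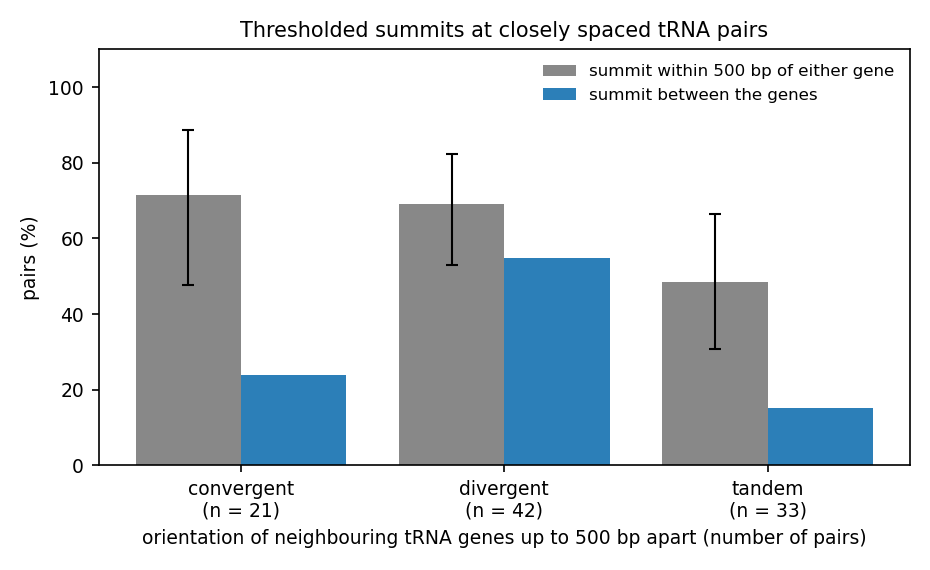
Pairs of neighbouring tRNA genes up to 500 bp apart, by orientation, as the share (%) with a final summit within 500 bp of either gene (grey, bars are exact 95% intervals) and the share with a summit between the 2 genes (blue). Divergent pairs have a summit between the genes in 54.8%, convergent pairs in 23.8% and tandem pairs in 15.2%.

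The loci with most tRNA genes differed widely. They were 2 with 6 genes and 2 with 5, and C12C8, which has 4 genes as do Y65A5A, R11 and T01B4, and was the first of these in genome order. The F28H6 locus on X, 1966 bp long with 6 identical histidine genes, 3 on each strand, held no final summit. Its relaxed summits had a signal of 15.29 in replicate 2 at F28H6.t2 and F28H6.t7, and of 4.35 in replicate 1 and 24.24 in replicate 2 at F28H6.t4 and F28H6.t5. The highest histidine peak lay elsewhere, at ZC449.t1 on X, with a signal of 196.7 and its summit 17 bp upstream.

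In the H08J11 locus, in the junction gene ajm-1 on X, all 5 glutamine genes were called through 2 peaks with signals 89.3 and 162.53. Near these genes the highest peaks of replicate 1 had signals of 25.18 and 34.18, and those of replicate 2 had 45.18 and 93.79. In the K01A12 locus, 3 cysteine and 2 arginine genes in K01A12.3 on X shared 2 peaks of 109.62 and 101.9. At the first, the signal was 111.57 in replicate 2 and 17.76 in replicate 1, near the end of the highest peaks there at rank 3883.

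The F22F1 locus on X has 6 genes of 4 isotypes, and 5 were called through 2 peaks of 67.62 and 111.96. The highest peaks reached 3 of its 6 genes in replicate 1 and 3 in replicate 2. The C12C8 locus on I has 4 glycine genes, of which C12C8.t3 and C12C8.t4, a divergent pair, were called with 109.77 and the other pair was not. In replicate 1 neither pair was among the highest peaks.

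The R11 locus on X shows how identical genes can differ over a short distance, and was picked for this after its values were seen. Its 4 tyrosine genes have 1 sequence and stand in tandem within 1590 bp. R11.t1 was called with 292.09, with its summit 33 bp upstream, and its signal was 77.1 in replicate 1 and 192.4 in replicate 2. R11.t3 and R11.t4 had relaxed summits of 6.64 and 14.63 in replicates 1 and 2, and R11.t2 had one of 6.67 in replicate 2 only. The 40 bases upstream of R11.t1 and R11.t2 are printed above.

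Position inside a protein-coding gene went with little difference in the final list. Of 290 tRNA genes inside one, 137 were called (47.2%, interval 41.4 to 53.2), and of 322 outside, 159 (49.4%, 43.8 to 55.0). Replicate 1 gave 40.7% inside and 41.9% outside, and replicate 2 the opposite order, 51.0% and 46.3%. Nearly all of those inside, 283, lay in introns, and 7 overlapped an exon. The 290 genes lay in 226 host genes or overlapping sets of host genes, of which 180 held 1 tRNA gene and 103 held a called one. On X, which holds 96 of the genes inside and 180 of those outside, 68.8% inside and 57.8% outside were called. Replicate 1 gave 52.1% and 47.2% there, and replicate 2 gave 71.9% and 52.8%. On autosomes the final shares were 36.6% and 38.7%, with 35.1% and 35.2% in replicate 1 and 40.7% and 38.0% in replicate 2. The intervals of the final list overlap on X and on autosomes.

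tRNA genes transcribed against their host gene were called in 69 of 123 cases (56.1%, 46.9 to 65.0) and those transcribed with it in 68 of 167 (40.7%, 33.2 to 48.6). The highest peaks of replicate 1 gave 40.7% for both, and those of replicate 2 gave 58.5% and 45.5%, so the difference was not shared by the replicates. X holds 45 of the first group and 51 of the second.

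Within 1000 bp of a protein-coding 5′ end lay 191 tRNA genes, of which 100 were called (52.4%, 45.0 to 59.6), against 196 of the 421 others (46.6%, 41.7 to 51.4). The difference was 2.31 points in replicate 1 and 4.80 in replicate 2, but −3.90 points with the 50% of final peaks of highest signal, and the relaxed list of replicate 1 gave 72.3% near and 74.8% far from a 5′ end. Among the called genes far from 5′ ends, summits stood at the tRNA gene as described above.

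Sequence inside the gene was examined through short words. GTTCGANNC was present in 441 genes, which were called in 46.3%, and absent from 171, which were called in 53.8%. The order in replicate 2 was the same with a smaller gap, 47.8% and 50.3%. The sign turned for merged loci, where genes with the word minus those without gave 2.27 points, and for genes with no other within 1000 bp, with 3.92 points. The proline and alanine families printed above hold only the wider word GTTCNANNC. With this wider word, chosen after the values were seen, 587 genes held the word and were called in 49.1%, and of the 25 without it 8 were called (32.0%, interval 14.9 to 53.5).

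The A-box word TGGNNNAGT was present in 182 genes, called in 53.3%, and absent from 430, called in 46.3%. Of the 7 genes with no TTTT within 50 bp after them, 2 were called. Genes with no identical copy were called in 39.2% of 143 (31.1 to 47.7), those with 2 to 5 copies in 47.6% of 82, with 6 to 10 in 44.0% of 100, and with more than 10 in 54.7% of 287 (48.7 to 60.6). Replicate 1 gave 32.9% for genes without a copy and 46.7% for those with more than 10 copies, and replicate 2 gave 33.6% and 55.7%.

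The 20 highest final peaks near a tRNA gene had their nearest tRNA gene on X in 13 cases and outside protein-coding genes in 14, and their summits lay upstream of the gene in 12. Of all 254 final peaks near a tRNA gene, 138 were on X, and of the 296 called genes, 159 lay outside protein-coding genes. Each of the genes nearest to the 20 highest peaks had a peak within 500 bp among the highest of both replicates. Near the arginine gene C18A11.t2 on X, replicates 1 and 2 had 423.99 and 588.35. The final peak there was the highest of the 20, with a signal of 1007.92 (rank 45). Its summit was 344 bp from the 5′ end, beyond the gene's 3′ end, in a peak 704 bp wide. It was thus not placed as the typical summit was.

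The next, 500.31 (rank 137), lay between 2 divergent genes on X, 53 bp upstream of the glutamate gene M02F4.t2 and 64 bp upstream of the glycine gene M02F4.t1. The replicates gave 194.07 and 297.67. The peak of 448.61 at the glutamate gene C28G1.t1 had its summit 86 bp upstream, and the 5′ end of the protein-coding gene C28G1.2 was 97 bp from this tRNA gene, so the summit was near both.

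At the leucine gene W02H3.t1 on X the signal was 343.92 and the summit 29 bp upstream, with 117.27 and 199.7 in the replicates. ZK899.t1 followed on X with 320.7, its summit 2 bp inside the gene, and 107.99 and 176.48. On the autosomes the highest peak of II was 326.47 near the alanine gene Y38E10A.t1, with its summit 218 bp upstream. That of V was 317.41 at the isoleucine gene F57F5.t1, 3 bp upstream, that of I 305.04 at the arginine gene F47G6.t1 in an intron of spe-15, 50 bp upstream, that of IV 279.67 near the arginine gene F13G11.t1, and that of III 263.56 at the leucine gene C14B9.t2, 8 bp upstream.

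The other isotypes had their highest peaks between 124.04 and 292.09, and apart from glutamine each summit was at most 65 bp from the 5′ end. The highest peak at a methionine gene was the lowest of these, 124.04 at C02F12.t1, with 41.97 and 51.28 in the replicates. Valine reached 250.48 at R04D3.t2, lysine 244.32 at W03G11.t1, asparagine 234.97 at F41D9.t3, cysteine 226.72 at C37A2.t1, serine 222.03 at C53C7.t2 and threonine 217.34 at F52C9.t1. The asparagine peak had 32.97 in replicate 1 (rank 1902) and 198.03 in replicate 2 (rank 302).

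The 5 lowest final peaks near a tRNA gene had signals of 61.92 to 63.15 and lay near T22F3.t3 (Pro), F33D11.t2 (Arg), C03F11.t1 (Met), Y69A2AR.t2 (Glu) and ZK154.t5 (Asn). The gene C03F11.t1 shows how far the replicates can differ at this height, with 5.79 at rank 15969 in replicate 1 and 39.79 at rank 3453 in replicate 2. Over 227 final peaks at called genes with a value in both, the highest signals near the gene in each replicate had a Spearman rank correlation of 0.531. It is given as a description, since these final peaks passed a threshold on agreement between the same replicates.

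**Figure D5:**
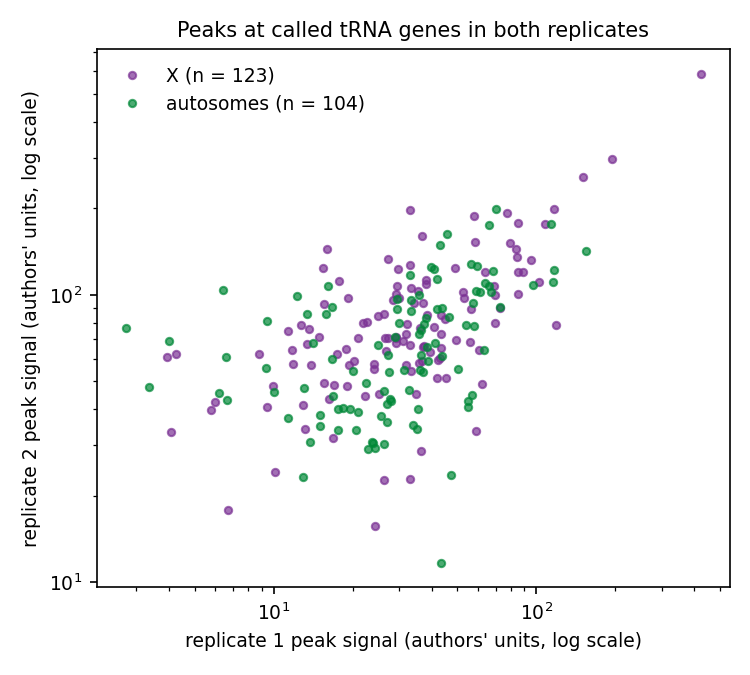
Signal of the highest relaxed peak near a called tRNA gene in replicate 1 (horizontal) and replicate 2 (vertical), chosen in each replicate apart. Each of the 227 points stands for a final peak that is the highest at a called gene with a value in both lists. Of these, 123 are on X (purple) and 104 on autosomes (green), on log axes in the authors' units. Values run from 2.73 to 423.99 in replicate 1 and from 11.68 to 588.35 in replicate 2, and peaks of X and of autosomes overlap over most of it; the highest peak in both replicates lies on X.

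Among other products of RNA polymerase III, none of the 16 annotated 5S rRNA genes had a final summit, and 1 had a relaxed summit, in replicate 2 (signal 12.8, rank 15387). These genes are near-identical repeats, for which the placement of reads bears on any count. The RNase P RNA gene rpr-1, whose product trims the 5′ ends of tRNAs, was called with a signal of 248 (rank 567), at ranks 775 and 620 in the replicates. The annotation used here pairs no names with the U6 and signal recognition particle RNA genes, and these were not analysed here.

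Of 18 listed protein-coding genes for RNA polymerase III, its factors and tRNA maturation, 16 were found and 2 had a final summit in their promoter, against 10.1% of all 19973 protein-coding genes. The 2 were rpac-19, a subunit shared by RNA polymerases I and III, with 190.54 and the summit 84 bp upstream, and rtcb-1, the tRNA ligase, with 155.49 and the summit 765 bp upstream. No final summit was found in the promoters of the polymerase subunit genes rpc-1 and rpc-2, the TFIIIB genes brf-1 and tbp-1, the repressor gene mafr-1 or the TFIIIC genes tftc-1, tftc-3 and tftc-5.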

How the data were processed

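ChIP-seq peak lists of 2 biological replicates on the ce11 build were read against Ensembl release 115 (assembly WBcel235, the same build). The authors deposited for each peak a signal value, their own measure of height, and a −log10 q value, which was not used because it reaches a ceiling. The relaxed pooled list is recorded as derived from the alignments of both replicates and a control. Not given in the sources used here are the aligner, the peak caller and how control reads entered the calling. Read depth is unknown, so the precision of a signal value cannot be given. Lists on the ce10 build were not used.

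The summit of a peak was its start plus the offset in the list. Isotypes and symbols came from RefSeq by WormBase ID, which matched 612 of 612 genes, and sequences were read from the genome. Shares carry exact Clopper-Pearson 95% intervals (scipy 1.17.1, pandas 2.3.3, Python 3.11.15). Neighbouring genes and identical copies are not independent, so these intervals are too narrow as statements about a class, and no difference between classes was tested. Shares by class were also computed in the 3889 peaks of highest signal of each replicate, and these values are printed for a part of the classes only. The counting was tested on simulated data with planted summits. Genes were named by a rule: the nearest tRNA gene to the 20 highest and 5 lowest final peaks near one, the highest on each chromosome and of each isotype, the 5 loci with most genes, and the selenocysteine gene. Other names were chosen after the values were seen. The members, classes and lists were chosen with earlier results of these data known. The alternatives were other summit distances, the 5′ end in place of the gene, overlap with the peak, the 50% of peaks with the highest signal, the relaxed pooled list, each replicate alone, merged loci, and leaving out genes near protein-coding 5′ ends.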

Additional observations from a re-analysis of the deposited data

How the results depend on the processing

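In 86 alternatives to 7 values, 45 stayed within the spread used here (1.5-fold for the count of called genes, 1 SD of the 2 replicate values for the others), 32 moved and 9 changed sign. No paired analysis was possible because the samples form 1 group. Depth is unknown, which leaves the number of calls to the authors' threshold, and the cause of the changes below was not tested unless the alternative itself gives it.

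The 296 called genes became 167 with the 50% of final peaks of highest signal, 464 with the relaxed pooled list, 196 without genes near a protein-coding 5′ end and 166 with only genes that have no other within 1000 bp (the last 2 drop genes); each replicate alone gave 253 to 297. The ratio of the tRNA share to that of other genes, 7.65, was 22.4, 10.8 and 6.10 at 100, 250 and 1000 bp, 18.5 by peak overlap, 3.13 with the relaxed pooled list, 5.73 against protein-coding genes and 12.5 against nuclear positions, and 6.72 to 7.96 with 1 replicate.

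The autosomal minus X difference, −24.1 points, kept its sign in all 12 alternatives: −15.8 at 100 bp, −16.1 by peak overlap, −16.3 with the 50% highest peaks, −19.6 with the relaxed pooled list, and −19.8 to −13.8 with 1 replicate. Outside minus inside protein-coding genes, 2.14 points, was −0.42 by peak overlap, −0.846 without genes near a 5′ end, 7.08 for merged loci, 8.75 for genes alone within 1000 bp, and −4.76 to 1.24 with 1 replicate.

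Genes with another within 1000 bp minus the rest, 10.9 points, was −2.99, 5.27 and 18.8 at 100, 250 and 1000 bp, −3.41 by peak overlap, 8.0 with the 50% highest peaks, 16.9 and 5.12 with spacings of 500 and 5000 bp, and 5.84 to 9.96 with 1 replicate. With minus without GTTCGANNC, −7.54 points, was 2.27 for merged loci, −14.5 without genes near a 5′ end, 3.92 for genes alone within 1000 bp and 17.1 with the word GTTCNANNC, and −11.6 to −2.45 with 1 replicate. Near a protein-coding 5′ end minus the rest, 5.80 points, was 7.93 and 7.81 at 100 and 1000 bp, 8.17 by peak overlap, −3.90 with the 50% highest peaks, 7.76 with the relaxed pooled list, 9.12 for merged loci and 2.31 to 4.80 with 1 replicate. Genes alone within 1000 bp and the word GTTCNANNC were chosen after seeing the data.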
